A study of Mus musculus with 9 samples.

Results

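The acute response to noradrenaline was read from 6 of the 9 libraries of this RNA-seq series on astrocytes cultured from mouse cortex. 3 libraries came from cells that had spent 90 min in 50 µM noradrenaline when their RNA was taken, and 3 from unstimulated cells. The remaining 3, from cells exposed likewise and harvested 3 days later, entered the fit but are not described. All cells grew on poly-L-lysine in high-glucose medium with fetal bovine serum and were passaged before confluence, and poly(A) RNA was sequenced. The controls carry the 3 day time in their titles, so treatment and time of collection cannot be told apart. Strain, sex and age of the animals are not stated, nor whether the libraries of a group are separate cultures. The p-values thus measure only how these libraries spread, which may be technical.

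Noradrenaline is released in the cortex by axons of the locus coeruleus, and astrocytes are among its main targets there. It binds adrenoceptors, G protein-coupled receptors of the alpha and beta kinds. Beta receptors raise cyclic AMP, which activates protein kinase A and the transcription factor CREB, while alpha receptors act through calcium and phospholipase C or lower cyclic AMP. The question of the comparison is which transcripts differed when the exposure ended, read here over every tested gene and ordered by what the proteins do.

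Total counts ran from 15529158 to 18729980 per library, and 13090 of 22100 genes had enough counts to be tested. The 90 min libraries stood apart from the controls on the first principal component (58.4% of the variance). All 12 astrocyte markers listed were tested, with summed levels of 767 to 792 CPM (counts scaled to library size with TMM factors) in controls and 724 to 756 CPM at 90 min. The gap junction gene Gja1 (55.5 ± 5.39 to 106 ± 3.201 CPM, mean ± SD, n = 3) and the glutamate transporter gene Slc1a3 were called higher, and 6 of the 12, among them Sox9 (248 ± 6.59 to 141 ± 1.84 CPM), were called lower. Gfap was at 1.13 ± 0.293 CPM in controls, a low level for this defining marker. Markers of fibroblasts and meninges summed to 2418 to 2696 CPM in controls and 2130 to 2625 CPM at 90 min, and none of the 8 was called.

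At 90 min 4320 of the 13090 genes were called (33%), 2294 of them higher (17.5%) and 2026 lower (15.5%), by edgeR's quasi-likelihood test at an adjusted p below 0.05. The directions were nearly balanced in number but not in size. 382 genes were called and at least 2-fold higher (2.92%) and 117 at least 2-fold lower (0.894%). Beyond 4-fold there were 141 higher genes and 5 lower genes. The median called gene was 1.28-fold higher or 1.24-fold lower. The CPM ranges of the groups did not overlap for 4165 of the 4320 called genes, and for 377 and 114 of the genes past 2-fold. A call favours separated ranges, and the share over all tested genes was not counted. These counts thus add no support to the calls. A call depended on the level. In the lowest of 4 equal parts of the genes by level (median 2.83 CPM) 17.7% were called, and in the highest (median 141 CPM) 41.9%. Genes past 2-fold were most frequent in the lowest part, with 155 higher and 64 lower, against 88 and 13 in the highest.

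**Figure D1:**
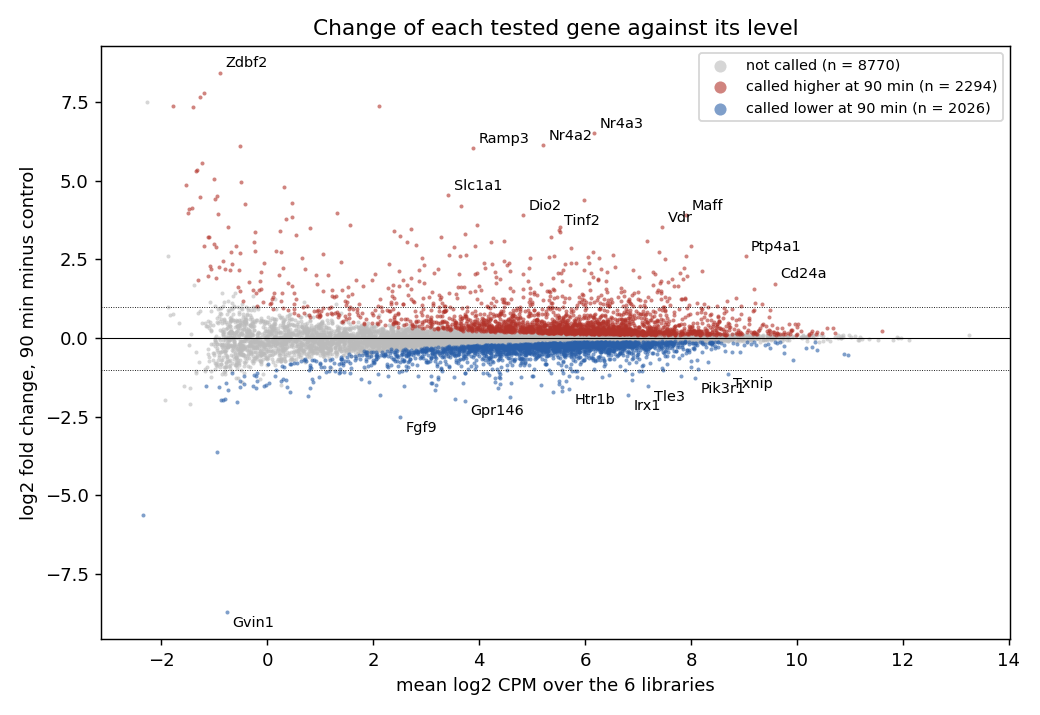
Log2 fold change (90 min minus control) of each of the 13090 tested genes against its mean log2 CPM over the 6 libraries. Red and blue points are called higher and lower by edgeR, and dotted lines mark 2-fold. Red points reach much farther from 0 than blue ones. Fitted values of genes at 0 in a group, such as Zdbf2 and Gvin1, depend on the prior count and are not fold estimates.

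Genes were sorted by symbol into 48 coding classes, which covered 69.2% of the tested genes together with non-coding and predicted ones. Among broad groups, secreted signals had the highest share of members called and at least 2-fold higher, 25 of 216 (11.6%), against 2.92% of all tested genes. Receptors and their partners followed with 23 of 377 (6.10%) and signalling adaptors with 9 of 148 (6.08%). Transcription factors had 42 of 923 (4.55%). Transcription factors also had 22 members at least 2-fold lower (2.38%), adaptors 8 (5.41%) and receptors 8 (2.12%), against 0.894% of all genes. In metabolism the 2-fold genes went 27 up (2.92%) and 1 down (0.108%), and in matrix and adhesion 11 up (2.96%) and 0 down. Both shares of higher genes were near that of all tested genes. No test compared these groups with other genes. Class counts below are to be read against 17.5% of all tested genes called higher and 15.5% lower, and 2.92% and 0.894% past 2-fold.

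**Figure D2:**
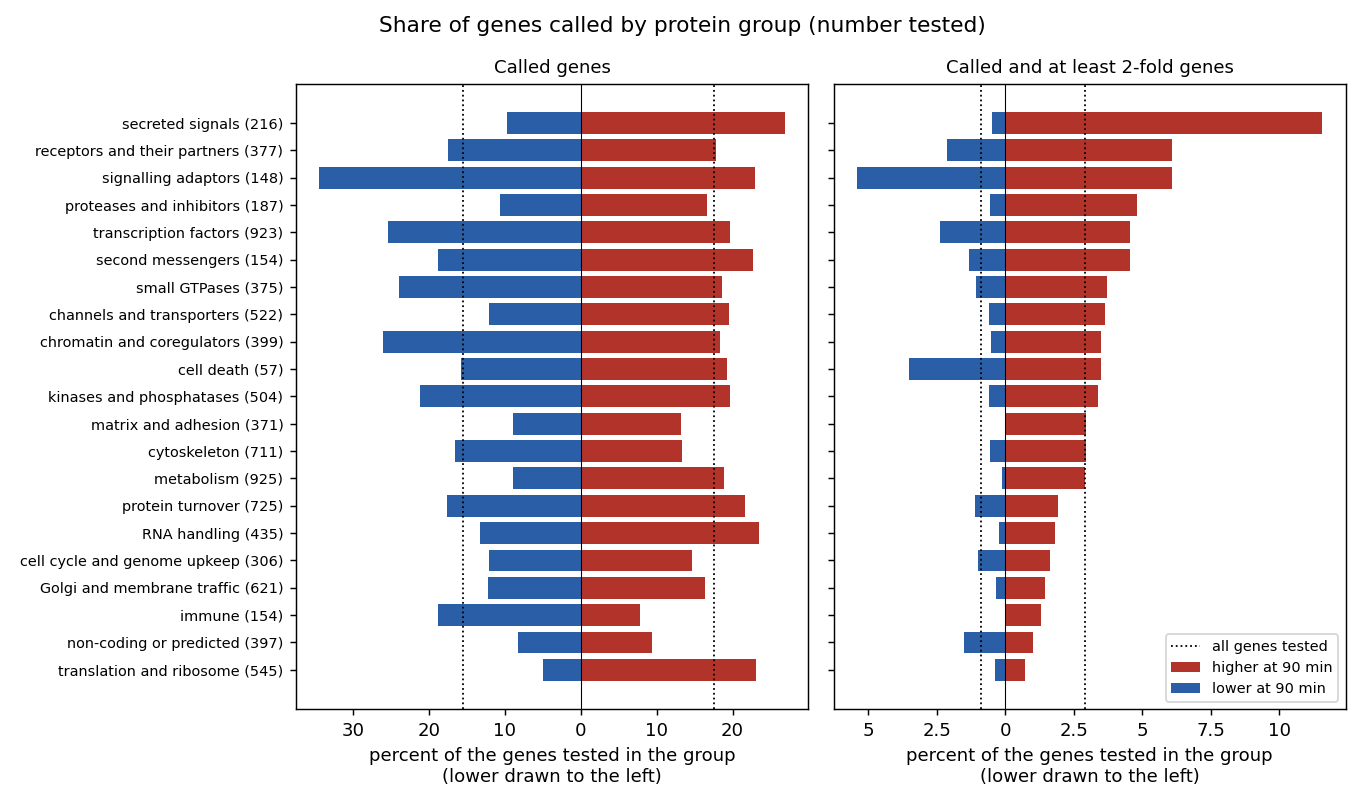
Percent of the tested genes of each broad protein group that were called (left) and called at 2-fold or more (right), higher to the right in red and lower to the left in blue, with the number tested in parentheses. Dotted lines are the shares over all tested genes. Secreted signals reach 11.6% at 2-fold or more higher, and adaptors have the longest lower bar, 5.41%.

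Among the classes of transcription factors, bZIP and nuclear receptor genes had the highest shares past 2-fold higher, 19.6% and 15.6%. Of 46 bZIP genes, whose proteins pair through leucine zippers, 20 were called higher and 12 lower, with 9 and 3 past 2-fold. Of 32 nuclear receptor genes 7 were higher and 13 lower, with 5 and 1 past 2-fold. The vitamin D receptor gene Vdr stood at 50.8, 51.3 and 53.2 CPM in the controls and at 569.8, 617 and 605 CPM at 90 min (log2 fold change 3.53, SE 0.06, edgeR adjusted p = 3.44e-18). Every library at 90 min lay more than 10 times above every control. Rorb, an orphan receptor related to retinoic acid receptors, went from 6.05, 6.08 and 7.23 to 43.3, 62.5 and 55.5 CPM (log2 fold change 3.06, SE 0.13, edgeR adjusted p = 1.68e-12), again with no overlap. Nr4a1, an immediate early orphan receptor, went from 10.8, 16.1 and 13.97 to 177, 133 and 165 CPM (log2 fold change 3.55, SE 0.11, edgeR adjusted p = 2.71e-14). With Nr4a2 (log2 fold change 6.14) and Nr4a3 (6.52), all 3 members of its family rose. The circadian repressor gene Nr1d1 was the 1 receptor past 2-fold lower, at 46.6, 50.3 and 51.4 CPM in controls and 25.7, 18.7 and 19.9 CPM at 90 min (log2 fold change −1.21, SE 0.09, edgeR adjusted p = 3.94e-09).

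The 9 bZIP genes at least 2-fold higher were Fosb, Maff, Atf3, Crem, Fosl2, Nfil3, Fosl1, Fos and Jdp2, with log2 fold changes from 4.201 down to 1.27. Nfil3, a repressor that works with the circadian clock, went from 12.4, 14.6 and 11.9 to 76.6, 71.9 and 76.5 CPM (log2 fold change 2.53, SE 0.08, edgeR adjusted p = 1.18e-14). Fosl2, a partner of Jun in AP-1, went from 88.6, 92.4 and 99.6 to 731, 652 and 744 CPM. Maff, a small Maf protein without an activation domain, went from 56.4, 62.5 and 67.6 to 938, 974.7 and 874 CPM. Cebpa, a differentiation factor, fell from 84.1, 79.7 and 81.8 to 32.8, 26.2 and 23.8 CPM (log2 fold change −1.56, SE 0.09, edgeR adjusted p = 6.65e-11). For Cebpa all libraries at 90 min lay below all controls, which the rule for naming it required.

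Zinc finger factors of the Kruppel-like, EGR and related families were called lower more often than higher, 23 against 13 of 69, but past 2-fold 7 were higher and 3 lower. Klf4 rose from 22.03, 22.4 and 25.4 to 134, 109.8 and 124 CPM (log2 fold change 2.396, SE 0.07, edgeR adjusted p = 1.59e-14), while Klf7 fell from 57.4, 59.6 and 63.4 to 20.1, 20.9 and 22.96 CPM (log2 fold change −1.496, SE 0.07, edgeR adjusted p = 1.20e-11). Klf11 (−1.31) and Klf15 (−1.25) were the others past 2-fold lower, and Glis1 (1.64), Plagl1 (1.59), Sp8 (1.47), Egr4 (1.45), Hivep2 (1.34) and Insm1 (1.15) those higher. Insm1 was not called without control replicates 2 and 3 or 90 min replicate 3 (edgeR adjusted p = 0.0607 to 0.110). Of 55 bHLH, HES and ID genes 8 were higher and 21 lower, with a median log2 fold change of −0.12 against −0.000842 over all tested genes. Id3, an inhibitor of bHLH factors, fell from 262, 249.7 and 245 to 139, 121 and 116 CPM (log2 fold change −1.01, SE 0.06, edgeR adjusted p = 6.65e-11). Among 149 ETS, STAT, IRF, SMAD and other factors 25 were higher and 52 lower. Csrnp1 (2.32) and Arid5a (2.13), an RNA-binding stabiliser of cytokine transcripts, rose, and the interferon regulatory factor gene Irf1 (−1.27) and the inhibitory SMAD gene Smad6 (−1.23) fell.

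Homeobox genes were called in both directions, 20 higher and 23 lower of 77. The 6 past 2-fold higher, Onecut3, Pax1, Dlx5, Hoxa5, Nkx6-1 and Msx2, had group means of at most 2.39 CPM at 90 min. Without 90 min replicate 2, Nkx6-1 and Msx2 were not called (edgeR adjusted p = 0.0873 and 0.0685), nor were they without control replicate 3 (0.0590 and 0.0505). The 2 past 2-fold lower were Iroquois genes. Irx1 fell from 217, 210.4 and 209 to 60.7, 65.4 and 53.7 CPM and Irx2 from 195, 182 and 187 to 74.7, 76.02 and 73.04 CPM (log2 fold change −1.33, SE 0.05, edgeR adjusted p = 8.00e-13). Of 53 forkhead and SOX genes 18 were higher and 19 lower. Sox1 rose (1.801), and Sox13 fell from 39.9, 39.9 and 39.2 to 16.3, 13.6 and 14.01 CPM (log2 fold change −1.44, SE 0.07, edgeR adjusted p = 2.05e-11). Foxj1, the master regulator of motile cilia, fell from 80.4, 80.5 and 73.5 to 35.4, 36.7 and 29.9 CPM (log2 fold change −1.198, SE 0.07, edgeR adjusted p = 5.65e-11). Foxj1 is also 1 of 5 ependymal markers listed, which summed to 77.7 to 85.8 CPM in controls and 35.7 to 41.8 CPM at 90 min. Tmem212 of that list was at 0 throughout, Ccdc153 and Rarres2 had means below 0.5 CPM, and Dnah9 was not called (−0.04). In bulk RNA fewer cells of a type and less RNA per cell cannot be told apart.

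Corepressors and coactivators were called 29 higher and 32 lower of 130. Tle3, a Groucho corepressor, fell from 257, 252 and 237 to 92.1, 75.97 and 89.7 CPM (log2 fold change −1.53, SE 0.06, edgeR adjusted p = 1.32e-12). The circadian repressor gene Per1 rose from 20.4, 23.05 and 22.3 to 99.1, 82.7 and 94.1 CPM (log2 fold change 2.07, SE 0.08, edgeR adjusted p = 3.78e-13), and Ppargc1b, a coactivator of mitochondrial genes, from 1.89, 1.8996 and 1.92 to 6.54, 6.11 and 5.29 CPM. Histone and DNA modifiers were called 44 higher and 72 lower of 269. Past 2-fold 8 were higher (2.97%, near the 2.92% of all tested genes) and 1 lower (0.372%, against 0.894%), Morc3 (−1.47). Morc3 levels of the groups overlapped, and it was not called with DESeq2 (adjusted p = 0.0948) or, by edgeR, without control replicates 1 and 3 (0.103 and 0.0643) and 90 min replicate 2 (0.0692). Higher members included the histone H3 methyltransferase genes Dot1l (1.53) and Nsd3 (1.302) and the deacetylase gene Hdac5 (1.28). Parts of the super elongation complex, which releases paused RNA polymerase, were among the unclassified genes past 2-fold and were chosen after their values were seen. Ell2 went from 43.1 ± 1.22 to 207 ± 9.84 CPM, Aff1 from 122 ± 6.45 to 481 ± 30.97 CPM and Aff4 from 445 ± 12.6 to 946 ± 52.5 CPM (SD, n = 3).

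**Figure D3:**
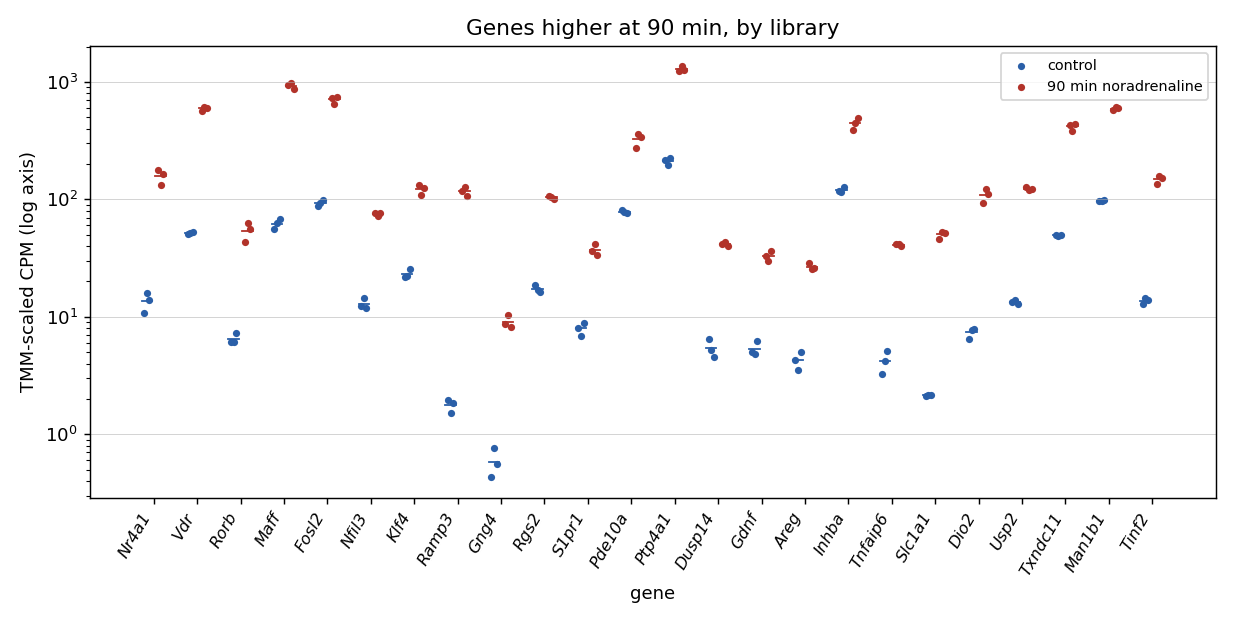
TMM-scaled CPM on a log axis of 24 genes higher at 90 min in each control library (blue) and each 90 min library (red), with horizontal lines at the group means. The red and blue points do not overlap for any of these genes, a condition for those that were named by rule.

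Receptor genes changed in both directions as well. Of 169 G protein-coupled receptor genes 29 were higher and 23 lower, near the shares over all genes, but 12 and 6 were past 2-fold. The serotonin receptor gene Htr1b, whose product inhibits adenylyl cyclase, fell from 93.8, 88.2 and 91.3 to 27.9, 33.1 and 27.8 CPM (log2 fold change −1.62, SE 0.06, edgeR adjusted p = 2.76e-13). The orphan receptor gene Gpr146 fell from 26.6, 24.2 and 28.4 to 7.61, 7.28 and 5.05 CPM, and the other members past 2-fold lower were Sstr3, Cxcr4, Prokr1 and Gprc5c. S1pr1, a sphingosine 1-phosphate receptor gene, rose from 8.0998, 6.902 and 8.904 to 36.2, 41.5 and 33.4 CPM (log2 fold change 2.22, SE 0.10, edgeR adjusted p = 4.52e-12). The orphan receptor gene Gprc5a rose from 8.32, 9.12 and 11.1 to 53.7, 50.2 and 51.04 CPM (log2 fold change 2.44, SE 0.10, edgeR adjusted p = 8.33e-13), and the proton sensor gene Gpr4 from 2.21, 1.96 and 2.102 to 9.79, 11.7 and 11.1 CPM. The remaining 9 past 2-fold higher were Adra1b, Adrb3, Htr2a, Hrh3, Gpr3, Mchr1, Adra2a, Drd1 and Cmklr1, with mean levels of 0.5905 to 3.56 CPM at 90 min. These include receptors for noradrenaline, serotonin, histamine and dopamine. Of them Adra2a was not called without control replicates 1 and 2 or any 1 of the 90 min libraries (edgeR adjusted p = 0.0519 to 0.121), nor with the replicate number as a block (0.0606).

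Among 60 genes of G proteins, their regulators, arrestins and RAMPs, 11 were higher and 8 lower, and 7 were higher without control replicate 3. Gng4, a G protein gamma subunit gene, went from 0.432, 0.7598 and 0.556 to 8.67, 10.4 and 8.24 CPM (log2 fold change 3.97, SE 0.21, edgeR adjusted p = 4.01e-11). Rgs2, which shortens signalling of Gq-coupled receptors, went from 18.5, 16.9 and 16.2 to 108, 106 and 100.3 CPM (log2 fold change 2.6004, SE 0.07, edgeR adjusted p = 2.67e-15), and Rgs17 had a log2 fold change of 1.87. Rgs3 fell from 15.6, 14.9 and 14.6 to 5.65, 5.84 and 4.63 CPM (log2 fold change −1.48, SE 0.11, edgeR adjusted p = 3.34e-09). Homer1, a scaffold of metabotropic glutamate receptors, rose from 15.7, 16.6 and 16.9 to 89.6, 100.2 and 101 CPM. Of the alpha-arrestins, Arrdc3, which acts on beta adrenoceptor traffic, rose from 38.01, 44.8 and 41.3 to 179, 175 and 177 CPM. Its relative Txnip, which restrains glucose uptake, fell from 613, 602 and 628 to 293, 281 and 267 CPM (log2 fold change −1.13, SE 0.04, edgeR adjusted p = 1.91e-13). Ramp3, a partner of calcitonin-family receptors, had the largest log2 fold change of the class, 6.04.

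Of 148 genes of receptor kinases and cytokine, TGF-beta, guidance and Notch receptors, 27 were higher and 35 lower. Past 2-fold 5 were higher (3.38%, near the 2.92% of all tested genes) and 0 lower (0.894% of all tested genes). Tgfbr1, a TGF-beta receptor kinase, rose from 92.6, 89.03 and 93.2 to 314, 319 and 335 CPM (log2 fold change 1.82, SE 0.04, edgeR adjusted p = 3.44e-16). Met, the receptor of hepatocyte growth factor, rose from 86.3, 79.9 and 93.5 to 249.5, 297 and 291 CPM (log2 fold change 1.69, SE 0.07, edgeR adjusted p = 4.48e-13), and the hedgehog receptor gene Ptch1 from 40.98, 39.7 and 39.5 to 96.7, 87.6 and 98.5 CPM. Cd14 and Il1rl1 were the others, at 2.24 and 1.36 on the log2 scale. Pdgfrb, a platelet-derived growth factor receptor gene listed as a pericyte marker, fell from 390.2 ± 2.19 to 199.5 ± 10.4 CPM (log2 fold change −0.97, SE 0.04, edgeR adjusted p = 2.29e-12). The 8 pericyte and smooth muscle markers summed to 732 to 741 CPM in controls and 500 to 566 CPM at 90 min. Acta2 (−0.03) and Tagln (−0.06) of that list were not called, Kcnj8 was at 0 in the controls, and Rgs5, Abcc9 and Des had means below 0.2 CPM.

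Cyclic nucleotide enzymes, protein kinase A subunits and their anchors were called 14 higher and 5 lower of 49, or 3 lower without 90 min replicate 2. The 5 members past 2-fold higher were the phosphodiesterase genes Pde4d, Pde10a, Pde3b and Pde4b and the cyclic AMP-binding gene Popdc3. Pde10a, which degrades both cyclic AMP and cyclic GMP, rose from 81.4, 78.3 and 76.1 to 273, 359.8 and 343 CPM (log2 fold change 2.05, SE 0.08, edgeR adjusted p = 2.41e-13). Pde3b rose from 1.404, 1.27 and 1.85 to 3.64, 4.11 and 5.41 CPM (log2 fold change 1.53, SE 0.22, edgeR adjusted p = 1.90e-05).

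Protein kinase genes split 61 higher and 74 lower of 336, with 11 (3.27%) and 3 (0.893%) past 2-fold. These shares were near the 2.92% and 0.894% of all tested genes. Trib1, a pseudokinase that guides proteins to degradation, rose from 27.8, 28.9 and 33.1 to 133, 135 and 135 CPM (log2 fold change 2.17, SE 0.06, edgeR adjusted p = 2.09e-15). Sgk1, a kinase gene induced by glucocorticoids, rose from 100.5, 99.2 and 112 to 394, 354 and 399.9 CPM (log2 fold change 1.88, SE 0.06, edgeR adjusted p = 1.18e-14), and the polo-like kinase gene Plk2 from 95.5, 92.4 and 91.2 to 313, 315 and 310.4 CPM. Sik1, which holds CREB coactivators in the cytoplasm, rose from 21.4, 22.3 and 29.4 to 71.5, 60.4 and 71.4 CPM. The symbol pattern also placed Camk2n2 here, which codes for an inhibitor of CaM kinase II and went from 2.05, 1.65 and 1.67 to 16.6, 18.4 and 16.2 CPM (log2 fold change 3.24, SE 0.18, edgeR adjusted p = 7.53e-11). The 3 past 2-fold lower were Ksr1, a scaffold of the Raf to ERK cascade (−1.404), Nuak1, a kinase related to AMPK (−1.24), and Prag1 (−1.22).

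Phosphatase genes were called 38 higher and 33 lower of 168. Past 2-fold 6 were higher (3.57%, near the 2.92% of all tested genes) and 0 lower (0.894% of all tested genes). Ptp4a1, a small prenylated tyrosine phosphatase, went from 216, 196 and 223 to 1246, 1353 and 1269 CPM (log2 fold change 2.61, SE 0.05, edgeR adjusted p = 2.77e-17). The other 5 were MAP kinase phosphatases or relatives of them, namely Dusp14, Dusp1, Dusp10, Dusp5 and Dusp4. Dusp14 went from 6.43, 5.26 and 4.51 to 41.3, 43.4 and 40.1 CPM (log2 fold change 2.94, SE 0.11, edgeR adjusted p = 3.37e-13), and Dusp5, which acts on ERK in the nucleus, from 8.53, 11.02 and 11.01 to 51.9, 50.2 and 51.3 CPM.

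Adaptors and feedback inhibitors had 34 members higher and 51 lower of 148, with 9 and 8 past 2-fold. Among the higher ones were inhibitors of receptor tyrosine kinase signalling: Errfi1 (2.16), Spry2 (1.22), Spry1 (1.09) and Spred2 (1.08). The insulin receptor substrate gene Irs1 was among the lower ones and fell from 80.4, 71.4 and 76.4 to 20.8, 25.5 and 23.1 CPM (log2 fold change −1.72, SE 0.07, edgeR adjusted p = 7.14e-13). Pik3r1, the regulatory subunit of phosphoinositide 3-kinase, fell from 416, 417 and 429 to 179, 169.8 and 173 CPM (log2 fold change −1.27, SE 0.04, edgeR adjusted p = 4.17e-14), and its inhibitor gene Pik3ip1 from 133, 125 and 135 to 63.7, 56.2 and 55.97 CPM. The inhibitors of NF-kB moved apart. Nfkbie rose from 14.04, 13.2 and 14.8 to 56.7, 58.7 and 57.5 CPM (log2 fold change 2.04, SE 0.07, edgeR adjusted p = 4.08e-14), while Nfkbia fell from 48.3, 45.1 and 51.6 to 20.4, 21.2 and 22.1 CPM (log2 fold change −1.19, SE 0.07, edgeR adjusted p = 1.66e-10). Socs3, a cytokine signalling inhibitor, fell with a log2 fold change of −1.07.

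Small GTPases and their regulators were called 70 higher and 90 lower of 375, with 14 (3.73%) and 4 (1.07%) past 2-fold. These shares past 2-fold were near the 2.92% and 0.894% of all tested genes. The share called higher (18.7%) was near the 17.5% of all tested genes, and the share called lower exceeded their 15.5%. Tbc1d30, a GTPase-activating protein for Rab proteins, rose from 3.24, 2.79 and 3.34 to 31.1, 26.2 and 30.6 CPM (log2 fold change 3.22, SE 0.12, edgeR adjusted p = 4.00e-13). Sipa1l2, which inactivates Rap, rose from 28.2, 31.5 and 28.9 to 139.5, 167 and 153 CPM (log2 fold change 2.38, SE 0.07, edgeR adjusted p = 1.08e-14). Arf4, a GTPase of the Golgi, rose from 333, 324 and 359 to 989, 1056 and 961 CPM (log2 fold change 1.56, SE 0.05, edgeR adjusted p = 1.44e-14). The others higher were Srgap1, Rasd1, Rasl12, Rab38, Rab43, Rhot2, Tbc1d9, Arl4d, Agap3, Dlc1 and Gem, at log2 fold changes of 1.01 to 3.78, the latter of Srgap1 and 4.87 without control replicate 3.

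Secreted signals rose far more often than they fell. Of 179 genes of growth factors, cytokines, chemokines, peptides and guidance ligands, 46 were higher and 17 lower, and past 2-fold 22 were higher and only Fgf9 (−2.51) was lower. Among ligands of the EGF family, Areg went from 4.27, 3.55 and 5.01 to 28.9, 25.3 and 26.2 CPM (log2 fold change 2.65, SE 0.13, edgeR adjusted p = 1.14e-11), Ereg from 14.5, 12.9 and 13.9 to 40.1, 39.8 and 45.3 CPM (log2 fold change 1.599, SE 0.08, edgeR adjusted p = 2.68e-11), and Hbegf had a log2 fold change of 1.37. Egf itself was not called (−0.13). Among neurotrophic factors, Gdnf went from 5.02, 4.81 and 6.18 to 32.7, 29.8 and 36.5 CPM (log2 fold change 2.63, SE 0.12, edgeR adjusted p = 4.25e-12) and Bdnf had a log2 fold change of 1.47. For Areg, Ereg, Hbegf, Gdnf and Bdnf the 3 libraries at 90 min lay above the 3 controls, which for Areg the naming rule required. The same held for 377 of the 382 genes past 2-fold higher, so it adds no support to these calls.

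Inhba, the subunit of activin A, went from 118, 115 and 128 to 389, 446 and 496 CPM (log2 fold change 1.88, SE 0.08, edgeR adjusted p = 7.63e-13). Tnfsf15, a TNF family cytokine gene, went from 0.162, 0.253 and 0.124 to 5.09, 6.06 and 4.51 CPM (log2 fold change 4.82, SE 0.35, edgeR adjusted p = 2.91e-09), and the interleukin gene Il6 from 0.162, 0.0633 and 0 to 2.63, 2.28 and 3.25 CPM (log2 fold change 4.98, SE 0.55, edgeR adjusted p = 9.77e-07). Il6 thus reached a few CPM from a level near 0, and its fitted log2 value was 6.15 without control replicate 1. Clcf1, a cytokine of the same family, rose with a log2 fold change of 1.28. Chemokine genes past 2-fold were Cxcl1 (2.05), Ccl7 (1.33) and Cxcl5 (1.27). Fgf2, Fgf15 and Fgf18 rose while Fgf9 fell from 13.4, 12.7 and 13.5 to 2.24, 2.33 and 2.34 CPM, so the fibroblast growth factor genes past 2-fold went 3 up and 1 down. Fgf18 was not called without control replicates 1 and 2 or 90 min replicates 1 and 3 (edgeR adjusted p = 0.0644 to 0.193), with the replicate number as a block (0.0679), in a fit of the 2 groups alone (0.0532) or with DESeq2 (adjusted p = 0.0988). Shh (2.91, and 3.53 without control replicate 3), Dlk1 (1.36), Nptx1 (1.51) and the granin gene Scg2 (1.26) were also higher. Tslp, a cytokine gene that no symbol pattern matched and that was chosen after its values were seen, went from 0.324, 0.823 and 0.309 to 4.59, 5.72 and 6.01 CPM (log2 fold change 3.49, SE 0.29, edgeR adjusted p = 2.14e-08).

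Matrix genes as a class were called less often than all tested genes. Of 153, 21 were higher (13.7%, against 17.5%) and 6 lower (3.92%, against 15.5%), or 3 lower without control replicate 3. Genes of hyaluronan also rose, of which Has2 was counted in this class. Tnfaip6, Ugdh, Ccn4 and the Adamts genes were sorted into other classes. Tnfaip6, which crosslinks hyaluronan, went from 3.24, 4.24 and 5.13 to 41.95, 41.8 and 39.9 CPM (log2 fold change 3.303, SE 0.11, edgeR adjusted p = 4.81e-14). Ugdh, the enzyme that makes the UDP-glucuronate from which hyaluronan is built, went from 111, 107 and 108 to 476, 533 and 508 CPM (log2 fold change 2.22, SE 0.05, edgeR adjusted p = 1.29e-16), and the synthase gene Has2 from 1.62, 1.71 and 1.55 to 5.59, 4.56 and 7.45 CPM (log2 fold change 1.84, SE 0.21, edgeR adjusted p = 1.51e-06). The urokinase gene Plau had a log2 fold change of 1.76. Ccn4, a matricellular target of WNT signalling, rose from 93.8, 92.9 and 104 to 274, 285 and 291 CPM. The proteases Adamts1 (4.38) and Adamts4 (2.11) rose, and Adamts15 (−1.93) fell.

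**Figure D4:**
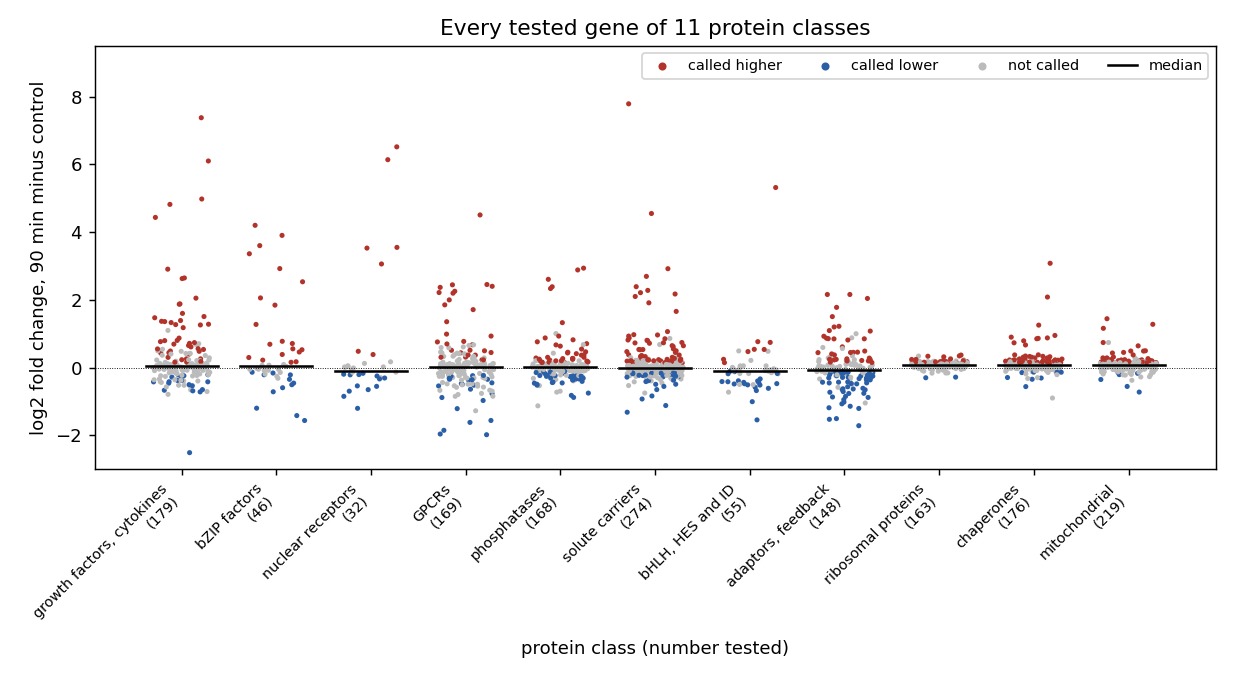
Log2 fold change (90 min minus control) of every tested gene in 11 protein classes, with the number tested in parentheses. Points are coloured by edgeR call and black lines are class medians. Growth factors, bZIP factors, nuclear receptors, G protein-coupled receptors, solute carriers and bHLH factors hold members above 4 on the log2 scale. Ribosomal proteins stay close to a median of 0.08.

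Solute carriers were called 63 higher and 33 lower of 274, with 12 and 2 past 2-fold. Slc1a1, a glutamate transporter gene, went from 2.11, 2.15 and 2.16 to 45.98, 52.8 and 52.1 CPM (log2 fold change 4.55, SE 0.14, edgeR adjusted p = 1.10e-14). Slc25a25, a calcium-regulated carrier of ATP across the inner mitochondrial membrane, went from 25.8, 24.6 and 23.6 to 131, 129 and 128 CPM (log2 fold change 2.39, SE 0.05, edgeR adjusted p = 7.46e-17). Slc6a17, a vesicular carrier of neutral amino acids, went from 22.1, 21.8 and 20.8 to 73.6, 80.1 and 89.9 CPM (log2 fold change 1.91, SE 0.08, edgeR adjusted p = 1.39e-12). The vesicle protein gene Sv2c went from 3.51, 3.23 and 3.401 to 13.3, 16.8 and 15.7 CPM. Slc2a4, Slc2a5, Slc12a1, Slc16a14 and Slc38a3 were higher, with means of 0.758 to 1.64 CPM at 90 min. Of the 2 lower, the iron exporter gene Slc40a1 had a log2 fold change of −1.32 and Slc9b2 one of −1.12, the latter with an edgeR adjusted p of 0.0684 without control replicate 1.

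Ion channels were called 19 higher (11.4%) and 22 lower (13.2%) of 167, below the 17.5% and 15.5% of all tested genes, with 7 and 1 past 2-fold. Kcnk10, a background potassium channel gene, went from 4.75, 5.13 and 4.95 to 27.7, 33.5 and 29.5 CPM (log2 fold change 2.61, SE 0.11, edgeR adjusted p = 1.30e-12). The inward rectifier gene Kcnj2 (1.54) and the cation channel gene Trpc1 (1.4997) also rose. Kcns3, a modulatory potassium channel subunit, was the 1 channel past 2-fold lower, from 19.98, 19.9 and 18.6 to 9.901, 9.503 and 7.39 CPM (log2 fold change −1.12, SE 0.11, edgeR adjusted p = 2.79e-07).

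Metabolic genes past 2-fold were 27 higher (2.92%, as over all tested genes) and 1 lower, the lower one being the lipid transfer gene Stard8 (−1.08). Dio2, the deiodinase that turns thyroxine into active thyroid hormone, went from 6.48, 7.79 and 7.85 to 93.5, 123.4 and 112 CPM (log2 fold change 3.8997, SE 0.13, edgeR adjusted p = 3.22e-14). Hk2, the inducible hexokinase gene, went from 27.4, 27.5 and 27.5 to 184, 172 and 188 CPM (log2 fold change 2.72, SE 0.05, edgeR adjusted p = 1.28e-17). Nmnat2, an enzyme of NAD synthesis, went from 34.5, 29.4 and 31.2 to 157, 213 and 188 CPM (log2 fold change 2.55, SE 0.09, edgeR adjusted p = 1.12e-13). The 3 genes did not overlap between groups, which the rule for naming them required. Impdh2, which limits guanine nucleotide synthesis (1.25), and Amd1, an enzyme of polyamine synthesis (1.23), rose too. Of the mevalonate pathway, Mvk went from 38.1 ± 0.799 to 99.9 ± 12.5 CPM and Pmvk from 28.99 ± 1.12 to 94.4 ± 3.35 CPM. Acsl4, which activates arachidonic acid, rose from 77.1 ± 2.52 to 213 ± 19.9 CPM, beside the prostaglandin synthase gene Ptgs2 (2.85). The detoxification genes Fmo1 (2.55) and Aldh3a1 (2.15) rose to 18.01 ± 2.11 and 11.5 ± 1.19 CPM.

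Protein turnover genes were called in both directions. Of 549 ubiquitin ligases, deubiquitinases and adaptors, 106 were higher (19.3%) and 120 lower (21.9%), against 17.5% and 15.5% of all tested genes. Past 2-fold 11 were higher (2.00%, below the 2.92% of all tested genes) and 8 lower (1.46%, against 0.894%). The deubiquitinase gene Usp2 rose from 13.4, 13.8 and 12.8 to 127, 120.4 and 122 CPM (log2 fold change 3.21, SE 0.06, edgeR adjusted p = 2.49e-17), and another, Usp44, fell from 7.34, 8.23 and 8.29 to 2.01, 2.67 and 2.104 CPM (log2 fold change −1.81, SE 0.15, edgeR adjusted p = 1.44e-08). Rnf217, a ring finger ligase gene, rose from 28.2, 26.7 and 26.03 to 154, 161 and 173 CPM (log2 fold change 2.59, SE 0.06, edgeR adjusted p = 1.06e-16), and the ligase gene Arih1, which no pattern matched and which was chosen after its values were seen, from 142, 138 and 147 to 589.5, 648 and 623 CPM (log2 fold change 2.12, SE 0.04, edgeR adjusted p = 7.46e-17). The adaptor gene Kbtbd11 fell from 34.3, 35.3 and 35.9 to 11.9, 12.3 and 11.3 CPM (log2 fold change −1.57, SE 0.07, edgeR adjusted p = 4.29e-12).

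In the endoplasmic reticulum and Golgi, Txndc11, a thioredoxin domain protein of the former, went from 49.6, 48.6 and 49.8 to 428, 385 and 438 CPM (log2 fold change 3.08, SE 0.05, edgeR adjusted p = 9.47e-18). Man1b1, the mannosidase that marks misfolded glycoproteins, went from 97.1, 97.1 and 98.001 to 571, 607 and 598 CPM (log2 fold change 2.604, SE 0.05, edgeR adjusted p = 2.51e-17). Ern1, a sensor of unfolded protein, went from 104, 109 and 112 to 423, 462 and 489.9 CPM (log2 fold change 2.08, SE 0.06, edgeR adjusted p = 2.67e-15). Of 176 chaperones and folding factors 51 were higher and 8 lower, or 4 lower without control replicate 3. Their median log2 fold change was 0.08.

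Several genes of the nuclear envelope, telomere and RNA machinery rose. Tinf2, a shelterin subunit at telomeres, went from 12.8, 14.5 and 13.8 to 136, 158 and 152 CPM (log2 fold change 3.44, SE 0.07, edgeR adjusted p = 2.98e-17). Lmnb1, a B-type lamin, went from 35.9, 36.6 and 35.7 to 139.96, 137 and 141 CPM (log2 fold change 1.95, SE 0.05, edgeR adjusted p = 4.33e-16), and Nup98, a nucleoporin gene, from 117, 114 and 113 to 354, 369.6 and 371 CPM (log2 fold change 1.67, SE 0.04, edgeR adjusted p = 3.56e-16). The inner nuclear membrane gene Emd, unclassified and chosen after its values were seen, went from 65.3 ± 1.702 to 432 ± 22.9 CPM (log2 fold change 2.73, SE 0.05, edgeR adjusted p = 7.99e-18). Cwc25, a spliceosome factor, went from 32.9, 35.2 and 33.1 to 148, 131 and 148 CPM (log2 fold change 2.08, SE 0.06, edgeR adjusted p = 5.17e-15). Rbm47, an RNA-binding protein, rose from 1.404, 2.41 and 1.98 to 18.3, 24.95 and 20.8 CPM (log2 fold change 3.48, SE 0.17, edgeR adjusted p = 8.00e-12), while Zfp36l2, which promotes mRNA decay, fell from 334, 327 and 359 to 141, 161 and 144 CPM (log2 fold change −1.19, SE 0.05, edgeR adjusted p = 1.65e-12).

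Genes of ribosome assembly and ribosomal proteins were called higher more often than lower. Of 256 ribosome biogenesis factors, RNA helicases and polymerase subunits, 74 were higher (28.9%) and 14 lower, 3 and 1 of them past 2-fold, with a median log2 fold change of 0.08. Of 163 ribosomal protein genes 23 were higher (14.1%, below the 17.5% of all tested genes) and 2 lower, 0 past 2-fold, and 87.1% had a positive value. That count moved with single libraries, to 10, 9 and 76 higher without 90 min replicate 1, 2 and 3 and to 11 without control replicate 3. Of 219 mitochondrial genes 48 were higher and 7 lower, with a median of 0.09. Without 90 min replicates 1, 2 and 3 the higher count was 31, 26 and 80, and without control replicate 3 it was 28. The tRNA synthetase gene Eprs1 rose from 292, 295 and 306 to 717, 688 and 748 CPM (log2 fold change 1.27, SE 0.04, edgeR adjusted p = 2.76e-14). Ddit4, an inhibitor of mTORC1, fell from 95.3, 96.3 and 94.1 to 42.7, 37.6 and 39.3 CPM (log2 fold change −1.26, SE 0.07, edgeR adjusted p = 2.97e-11).

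Past 2-fold, regulators of cell death and of growth arrest went in both directions. Mcl1, an anti-apoptotic member of the BCL2 family, rose from 149, 144 and 153 to 358, 349 and 348 CPM (log2 fold change 1.24, SE 0.04, edgeR adjusted p = 1.50e-13), as did Faim, an inhibitor of apoptosis (1.005). Bbc3, a pro-apoptotic member induced by p53, fell from 15.2, 15.96 and 16.1 to 5.82, 4.72 and 4.33 CPM (log2 fold change −1.66, SE 0.11, edgeR adjusted p = 5.36e-10), and Bmf, another, from 24.03, 22.1 and 21.3 to 5.87, 5.78 and 5.95 CPM (log2 fold change −1.94, SE 0.09, edgeR adjusted p = 5.99e-12). These 4 were the members of 57 tested that passed 2-fold, 3.51% in each direction, against 2.92% higher and 0.894% lower of all tested genes. In all the class had 11 higher (19.3%) and 9 lower (15.8%), near the 17.5% and 15.5% of all tested genes. Gadd45a, a stress-induced arrest gene, fell from 85.2, 84.97 and 84.4 to 28.2, 24.8 and 25.97 CPM (log2 fold change −1.69, SE 0.05, edgeR adjusted p = 2.56e-14), while its relative Gadd45g rose from 16.7, 16.1 and 16.7 to 51.3, 51.8 and 42.7 CPM (log2 fold change 1.56, SE 0.08, edgeR adjusted p = 3.33e-11). Ccng2, a cyclin gene tied to arrest, fell from 75.8, 73.96 and 78.1 to 27.4, 26.7 and 28.01 CPM (log2 fold change −1.47, SE 0.05, edgeR adjusted p = 1.36e-13), and Trp53inp1 had a log2 fold change of −1.01.

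**Figure D5:**
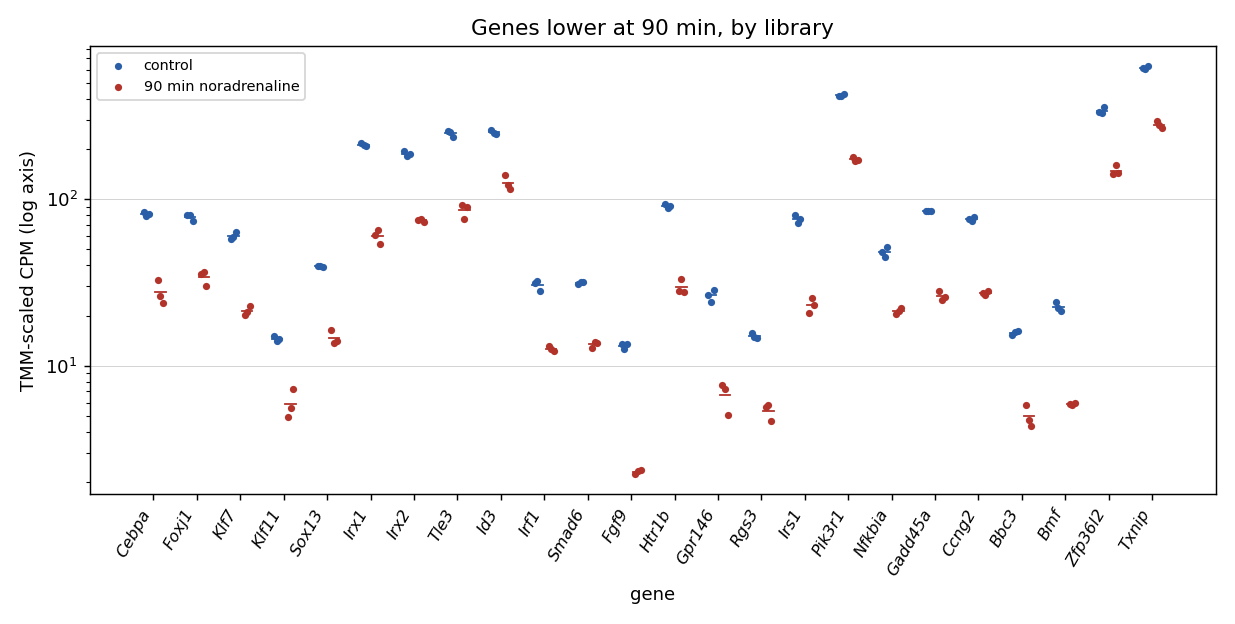
TMM-scaled CPM on a log axis of 24 genes lower at 90 min in each control library (blue) and each 90 min library (red), with horizontal lines at the group means. All red points lie below all blue points of the same gene, a condition for those that were named by rule.

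In the cytoskeleton, Pls1, which bundles actin, rose from 1.89, 1.65 and 2.84 to 16.6, 18.4 and 18.03 CPM (log2 fold change 3.05, SE 0.16, edgeR adjusted p = 2.09e-11), and Synpo2, an actin-binding protein of stress fibres, from 7.99, 7.09 and 9.77 to 37.9, 46.2 and 43.2 CPM. Ndel1, a dynein regulator, rose from 80.3, 70.3 and 73.1 to 324, 318 and 320.05 CPM (log2 fold change 2.102, SE 0.05, edgeR adjusted p = 3.44e-16). Cilium and centrosome genes were called 26 higher and 49 lower of 283, with a median of −0.06. Ift80, a cilium transport gene, was the 1 past 2-fold lower, at 85.2, 35.1 and 34.7 CPM in controls and 6.43, 26.2 and 10.2 CPM at 90 min (log2 fold change −1.86, SE 0.40, edgeR adjusted p = 0.00132). Its groups did not overlap, a condition for naming it, but control replicate 1 lay more than 2-fold above the other controls. The log2 value was −1.28 without control replicate 1 and −2.65 without 90 min replicate 2. Among 154 immune genes 12 were higher and 29 lower, and Cd24a, a surface glycoprotein gene, went from 427, 409.7 and 427 to 1352, 1487 and 1361 CPM (log2 fold change 1.73, SE 0.04, edgeR adjusted p = 7.25e-16).

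16 genes with at most 3 counts over the 3 controls were called higher at 90 min. A gene near 0 in a group can pass the filter on low counts only through other libraries. The direction of these calls was thus favoured in advance, and tested genes with so few control counts were not counted. Wnt9b, a WNT ligand gene, had 0, 2 and 0 counts in the controls and 57, 54 and 57 at 90 min, a ratio of 80.8 (95% counting interval 22.01 to 672). Zdbf2, an imprinted gene, had 0 counts in every control and 34, 42 and 52 at 90 min, at least 41.02-fold higher against 3 counts over the group. Ucp1, the uncoupling protein of brown fat, had 0 counts in every control and 27, 25 and 30 at 90 min, at least 26.3-fold higher. Each of the 3 genes had at least 25 counts in every library at 90 min. Onecut3, a homeobox gene (ratio 39.4, 10.6 to 331), and Fgf15, an endocrine growth factor gene (24.04, 7.92 to 119), were similar. Fibcd1, a receptor for acetylated groups, had a ratio of 64.4 (11.2 to 2582), and Efcab15, at 0 in the controls, was at least 24.04-fold higher. Adra1b had a ratio of 25.3 (8.35 to 125). The intervals do not cover the spread between libraries, and without control replicate 2 the fitted log2 values of Wnt9b and Fibcd1 were 8.84 and 7.52, against 6.101 and 5.58 with it. Without control replicate 1 that of Fgf15 was 5.23 against 4.43, and without control replicates 1 and 3 that of Adra1b was 3.91 and 5.39 against 4.51. The other 8 were Nefl, Elfn1, Tal1, Pax1, Krt13, Sla, Liph and Epn3. In the other direction Gvin1 had 53, 61 and 36 counts in the controls and 0 in each library at 90 min, at least 52.0-fold lower. Gvin1 belongs to a family of near-identical copies, among which shared reads could be moved, so its value is uncertain.

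Promoter windows from RefSeq (build GRCm38.p6, 250 bases before to 50 after an annotated start) were searched on both strands for 3 motifs. These were TGACGTCA, the full cyclic AMP response element bound by CREB, TGACG, its shorter form that also lies within it, and TGANTCA. The last is a loose form of the AP-1 element with any base in the middle, so its shares are not shares of AP-1 elements. Windows were matched by gene identifier for 1839 of 2294 genes called higher (80.2%) and 1640 of 2026 called lower (80.9%). Of the windows of genes called higher 4.83% held TGACGTCA and 41.3% held TGACG. Of those of genes called lower 0.993% and 22.4% did. For TGANTCA the shares were 5.64% and 5.37%. Of the windows of all tested genes 3.02%, 30.03% and 5.13% held the 3 motifs, but 79.6% of those genes had a window, just short of 80%, so no comparison with them is drawn. The table holds 32851 windows, genes not tested included, and 1.79%, 20.8% and 7.81% of them held the 3 motifs. These shares are descriptions without a test. The groups past 2-fold had windows for fewer than 80% of their genes, so the same shares over them are void and are not given. Of the 20 named genes with the highest log2 fold changes 17 had a window, of which 12 held TGACG and 4 the full element. Of the 20 with the lowest 14 had a window, of which 7 held TGACG and 0 the full element. These 14 are fewer than 80% of the 20, so no comparison with the highest genes is drawn. These counts are per gene, while the shares above are per window. Counted per gene, 47.9% of genes called higher with a window held TGACG, and 27.1% of those called lower. Nr4a3, Nr4a2 and Nr4a1 had no full element but 4 copies of TGACG each, and Ramp3, Slc1a1, Vdr, Rbm47 and Tnfaip6 had neither.

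Stretches of 60 bases around the full element (in capitals, gene strand) are shown for the 6 called genes of highest fitted log2 fold change whose window holds it, because they let the element be read in its surroundings. The element starts 59 bases before the annotated start in Zdbf2, 29 in Maff, 95 in Dio2, 27 in Tmem198, 78 in Pcsk1 and 56 in Tinf2. Tmem198 holds 2 copies in its window.
Zdbf2, chr1:63273184-63273243, plus strand: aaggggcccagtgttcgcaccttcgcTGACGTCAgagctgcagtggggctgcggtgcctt
Maff, chr15:79347465-79347524, plus strand: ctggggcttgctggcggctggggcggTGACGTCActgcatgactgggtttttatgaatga
Dio2, chr12:90739100-90739159, minus strand: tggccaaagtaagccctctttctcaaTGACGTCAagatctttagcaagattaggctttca
Tmem198, chr1:75479479-75479538, plus strand: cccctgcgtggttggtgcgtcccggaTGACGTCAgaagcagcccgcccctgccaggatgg
Pcsk1, chr13:75089753-75089812, plus strand: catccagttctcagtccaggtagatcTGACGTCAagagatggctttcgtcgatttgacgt
Tinf2, chr14:55681840-55681899, minus strand: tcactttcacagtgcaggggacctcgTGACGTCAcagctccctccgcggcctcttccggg
Of these genes, Tmem198, a membrane protein gene, rose from 1.19, 0.507 and 0.6801 to 9.57, 10.4 and 9.74 CPM (log2 fold change 3.604, SE 0.20, edgeR adjusted p = 8.01e-11). Pcsk1, a prohormone convertase, had 1, 2 and 3 counts in the controls and 22, 26 and 28 at 90 min (log2 fold change 3.53, SE 0.50, edgeR adjusted p = 2.17e-05). The levels of the other 4 are given above. Coordinates are of the older build of the RefSeq table, not of mm39.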

How the data were processed

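Estimated counts for each gene, with Entrez identifiers and symbols, were deposited by the authors in a single table. The submitters' processing notes name fastp 0.23.4, Salmon 1.8.0 and the mm39 mouse build. Annotation, rounding, summing of transcripts to genes and use of strand are not stated. All 198900 values were whole, so rounding changed none, and Salmon's sharing of reads makes values of near-identical or overlapping genes uncertain. 1 row without a symbol took at most 0.000668% of any library and stayed in under its identifier.

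Groups were read from the titles. The counts were fitted with edgeR 4.0.16 (R 4.3.3), all 9 libraries together and 1 coefficient per group, after filterByExpr (minimum count 10, minimum total 15) and TMM scaling (factors 0.961 to 0.966 at 90 min, 1.006 to 1.017 in controls). The two-sided quasi-likelihood test compared 90 min with control, Benjamini-Hochberg adjustment ran over 13090 genes, and the threshold for a call was 0.05. The SE is the log2 fold change divided by the square root of F. Past 2-fold means called with a log2 fold change of at least 1 in size, a description and not a test of the fold. Levels are TMM-scaled CPM over 3 libraries. In a library, 3 counts, the number a count of 0 allows, correspond to 0.160 to 0.193 CPM. Bounds against a group at 0 and exact counting intervals cover counting error only. Replicates differed by more than sampling noise (chi-square per degree of freedom 2.38 to 7.14).

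Protein classes are symbol patterns, the first match counting. They and the other lists were chosen with earlier results of these data known, and no set test was run. Named genes were called, had a mean log2 CPM of at least 1 over the 6 libraries and non-overlapping ranges, and left out non-coding and predicted genes: the 20 highest and 20 lowest log2 fold changes, up to 2 per class and direction past 2-fold, and the 8 genes near 0 in controls (at most 3 counts) with the highest levels, with the reverse. Of the 142 genes named by this rule the values of some are not reported here. Other genes in the text were picked with their values known, from the members past 2-fold. The fit was tested on simulated data. Alternatives were RLE factors, no or a stricter filter (1 CPM in 6 libraries), DESeq2 1.42.0, a fit of the 2 groups alone, the replicate number as a block, and each library left out.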

Additional observations from a re-analysis of the deposited data

How the results depend on the processing

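The 12 alternatives kept the 4 counts of called genes within 1.5 times of the reported values. Genes called higher numbered 2082 (DESeq2) to 2331 (no filter) under other settings, and 1936 to 2432 when a library was left out, against 2294. Genes called lower numbered 1748 to 2160, and 1598 to 2062 with a library left out, against 2026. Past 2-fold, the counts were 296 (stricter filter) to 437 (no filter) higher and 93 to 141 lower under the other settings, and 374 to 400 and 107 to 121 with a library left out. The median log2 fold change over all genes stayed within 0.01 of 0 in each fit. Of 142 named genes 141 kept direction and call in every alternative that gave a value. The exception was Slc9b2 (edgeR adjusted p = 0.0684 without control replicate 1), and 12 had no value under the stricter filter. Of the 499 genes past 2-fold 37 lost the call in at least 1 alternative. Replicate numbers did not pair the samples (correlations of the deviations of same-numbered libraries −0.0017, −0.12 and −0.00031). With the replicate number as a block 2095 genes were called higher and 1812 lower, 382 and 114 of them past 2-fold. Counts in some protein classes moved by more than 1.5 times with single libraries, as given beside them. The depth limits genes near 0, whose counting intervals are wide, and the size of a change that can be called at low levels.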

Other observations

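Of 4038 tested genes that matched no protein class, 633 were called higher and 610 lower, with 96 and 34 past 2-fold. The examples that follow were chosen after their values were seen. Lhfpl2, a tetraspan membrane protein gene, went from 76.3 ± 2.398 to 437 ± 23.6 CPM (log2 fold change 2.51, SE 0.05, edgeR adjusted p = 7.46e-17), and Cbarp, an inhibitor of voltage-gated calcium channels, from 36.7 ± 0.382 to 229 ± 7.29 CPM (log2 fold change 2.64, SE 0.04, edgeR adjusted p = 6.62e-18). Tcim went from 7.57 ± 1.77 to 64.9 ± 2.15 CPM and Spdya, an activator of cyclin-dependent kinases, from 2.44 ± 0.6198 to 19.3 ± 0.706 CPM. Adarb1, an RNA-editing deaminase, rose from 7.94, 6.78 and 7.17 to 36.4, 37.3 and 42.6 CPM (log2 fold change 2.403, SE 0.10, edgeR adjusted p = 7.63e-13).

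Among the lower unclassified genes, the ectodysplasin receptor gene Edar went from 0.972, 1.33 and 1.48 to 0, 0.167 and 0.1202 CPM (log2 fold change −3.62, SE 0.55, edgeR adjusted p = 4.14e-05). Ndp, which codes for the secreted WNT receptor ligand norrin made by astrocytes, went from 2.81, 2.22 and 1.67 to 0.559, 0.834 and 0.661 CPM (log2 fold change −1.703, SE 0.31, edgeR adjusted p = 0.000280). The corepressor gene Runx1t1 went from 1.73, 0.7598 and 1.05 to 0.168, 0.5002 and 0.1803 CPM (log2 fold change −2.05, SE 0.47, edgeR adjusted p = 0.00237), and Kank1, an adaptor between actin and microtubules, from 122 ± 5.44 to 52.2 ± 1.19 CPM (log2 fold change −1.22, SE 0.05, edgeR adjusted p = 6.46e-13). Edar and Runx1t1 were below 1.5 CPM in both groups on average, and without 90 min replicate 2 their log2 values were −4.27 and −2.74. Of the oligodendrocyte lineage markers listed, Mbp rose from 16.03 ± 1.03 to 27.98 ± 0.204 CPM (log2 fold change 0.80, SE 0.08, edgeR adjusted p = 1.10e-07). Olig1 and Olig2 of that list were at 0 in all 6 libraries, and Mog, Mag and Sox10 had means below 0.1 CPM.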
